A study of Mus musculus with 19 samples.

Results

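Expression of 8 transcription factor genes of naive pluripotency (Esrrb, Tfcp2l1, Tbx3, Nr0b1, Nanog, Klf2, Klf5 and Prdm14) was compared between cell states, culture media and mouse strains in 19 libraries. The genes were found by symbol among the 23420 genes of the count files, and all 8 were present in each library. RNA came from 14 induced pluripotent stem cell (iPSC) libraries, 3 embryonic stem cell (ESC) lines and 2 epiblast stem cell (EpiSC) lines, with 1 library per line or per clone and medium. The study asked whether strains that do not give stable ESC-like cells in serum and LIF, called non-permissive, give them when GSK3B and MEK inhibitors are added.

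The iPSC were made from embryonic fibroblasts of pooled littermates with a constitutive lentivirus carrying Oct4, Klf4, Sox2 and Myc, and all were at passage 16 or later and depleted of feeder fibroblasts. Permissive 129S1/SvImJ iPSC (129) in ESC/LIF medium were represented by male clones 1 and 17 and female clones 5 and 8. Later passages of male clones 1 and 17 had been moved to 2iS, which is ESC/LIF medium with 3 uM GSK3B inhibitor and 1 uM MEK inhibitor PD0325901. Non-permissive NOD/ShiLtJ (NOD) iPSC in 2iS were male clones 3 and 35 and female clones 7 and 52, and non-permissive WSB/EiJ (WSB) iPSC in 2iS were male clones 12 and 25 and female clones 23 and 28. The ESC lines of 129, NOD and WSB were male and grown in serum and LIF with both inhibitors, and the male EpiSC lines were of NOD and of 129/Sv (FT129/4) in EpiSC medium. Clones of a strain share their reprogramming, so p-values measure the spread between clones and not between independent derivations. Tests of cell states pool 12 iPSC libraries, without the NOD males, over strain, sex and medium. In them, 129 clones 1 and 17 enter in both media as if separate clones. Those p-values measure the spread over that mixture and over the ESC and EpiSC lines.

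Conditions were taken from sample titles, because the source names and characteristics of the same samples named another line or clone in 19 of 19 libraries. Against counts on 4 genes of Chromosome Y, the sex given by the title was wrong for 0 of the 19 and that given by the characteristics for 10. Gene counts per library were 92996 to 226794 in 17 libraries, which was 1.15% to 1.74% of uniquely aligned read pairs, and 430173 and 567432 (5.59% to 5.62%) in the 2 NOD male iPSC. A count of 3, used as the detection floor, was 13.2 to 32.3 CPM (gene counts scaled to a common library size) in the 17 libraries. Libraries were stranded, and whether the counted strand is that of the gene or the opposite one was not tested. Levels below are therefore those of the counted strand, whichever it is. Genes with exons on the opposite strand took 54.9% to 68.2% of gene counts in the 17 libraries and 35.3% to 35.9% in the NOD males. Such exons overlap 1 of the 8 members (12.5%), Tbx3, against 24.4% of all genes matched to the annotation. Gapdh, an abundant message of all cells, had 0 to 6 counts in the 17 libraries, and Xist, the silencing RNA of the inactive X, had 593 to 610 counts in the male ESC. The 2 NOD male iPSC, which stand apart in these shares, are described separately, and the other comparisons use the remaining 12 iPSC.

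Naive pluripotency is the state of the epiblast before implantation, and mouse ESC hold it in culture under LIF, which signals through Stat3, or under inhibitors of GSK3B and MEK. EpiSC stand for the primed epiblast after implantation, which keeps Pou5f1 and Sox2 but loses most naive factors. Inhibition of GSK3B relieves repression of targets such as Esrrb by Tcf7l1, and inhibition of MEK removes an Fgf signal that drives exit from the naive state.

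Esrrb and Nr0b1 encode orphan nuclear receptors, Tfcp2l1 a grainyhead-family factor and Tbx3 a T-box factor. Nanog encodes a homeodomain factor, Klf2 and Klf5 are Krüppel-like factors, and Prdm14 is a PR-domain repressor of Fgf signalling. In GRCm38, Esrrb lies at chr12:86361117-86521628, Tfcp2l1 at chr1:118627945-118685168, Tbx3 at chr5:119670669-119684724, Nr0b1 at chrX:86191764-86195947, Nanog at chr6:122707489-122714633, Klf2 at chr8:72319033-72321656 and Klf5 at chr14:99298691-99315036, all on the plus strand. Prdm14 lies at chr1:13113457-13127163 on the minus strand. All 8 are protein-coding genes, and the counts cover their exons.

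Promoters of 3 genes are shown because these genes carry the main contrasts: Esrrb between cell states, Tfcp2l1 between media and Nanog between 129 in ESC/LIF and WSB in 2iS. Each is the RefSeq window from 250 bases before to 50 bases after a transcription start on the plus strand of GRCm38.p6, and capitals mark a motif match.
Esrrb, chr12:86360867-86361166: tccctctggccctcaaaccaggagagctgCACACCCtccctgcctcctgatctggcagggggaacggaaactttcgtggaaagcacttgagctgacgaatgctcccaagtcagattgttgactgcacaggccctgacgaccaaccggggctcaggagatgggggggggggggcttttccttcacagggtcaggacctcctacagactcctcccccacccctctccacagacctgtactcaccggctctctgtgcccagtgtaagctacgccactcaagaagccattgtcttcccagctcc
Tfcp2l1, chr1:118627695-118627994: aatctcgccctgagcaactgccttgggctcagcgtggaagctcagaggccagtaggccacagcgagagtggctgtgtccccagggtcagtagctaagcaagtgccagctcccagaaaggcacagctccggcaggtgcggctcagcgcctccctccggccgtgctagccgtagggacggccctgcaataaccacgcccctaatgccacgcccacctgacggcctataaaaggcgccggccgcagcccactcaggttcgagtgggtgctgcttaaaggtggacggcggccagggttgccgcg
Nanog, chr6:122707239-122707538: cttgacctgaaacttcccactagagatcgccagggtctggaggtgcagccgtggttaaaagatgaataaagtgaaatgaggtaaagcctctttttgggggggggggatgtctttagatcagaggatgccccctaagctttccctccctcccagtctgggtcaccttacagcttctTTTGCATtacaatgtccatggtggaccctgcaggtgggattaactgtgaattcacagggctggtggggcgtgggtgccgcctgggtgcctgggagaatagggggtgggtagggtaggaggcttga
Entries were matched for 5 of the 8 genes, in 7 windows. The Nanog window holds TTTGCAT, the core of the octamer bound by POU factors such as Pou5f1, 75 bases before the start, and 4.63% of the 32851 promoters of this length hold it. The Esrrb window shown holds CACACCC, a form of the CACCC box bound by Krüppel-like factors, 221 bases before the start, a motif in 7.95% of all promoters. Another Esrrb window, chr12:86421394-86421693, holds no match to any motif searched. The Tfcp2l1 window holds none of the 5 motifs searched on both strands, which also included AAGGTCA, the extended half-site bound by Esrrb (4.72% of promoters), TTCCNGGAA, the STAT palindrome (1.15%), and CTTTGAT, a TCF core (3.73%). These matches describe the letters of the windows only.

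Naive factors in ESC, iPSC and EpiSC were compared first. In ESC and in the 12 iPSC, all 6 members that passed the filter on low counts were higher than in EpiSC. Esrrb, Nr0b1 and Prdm14 had 0 counts in both EpiSC lines. In bulk samples, fewer cells of a type and less RNA per cell cannot be told apart.

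The count of Esrrb was 0 in NOD EpiSC and 0 in 129 EpiSC. In ESC it was 90.1 CPM in NOD, 179 CPM in WSB and 245 CPM in 129, and in the 12 iPSC it ran from 154 CPM through a median of 239 CPM to 347 CPM. Each of these 15 libraries lay above both EpiSC. Taking 3 counts over both EpiSC lines together as the floor (9.21 CPM), pooled Esrrb was at least 19.5-fold higher in ESC and at least 26.5-fold higher in the 12 iPSC.

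Tfcp2l1 had 0 counts in NOD EpiSC and 1 count (7.57 CPM) in 129 EpiSC. Its level was 144 CPM in NOD ESC, 152 CPM in WSB ESC and 438 CPM in 129 ESC, and 112 to 461 CPM in the 12 iPSC. The groups did not overlap, and against 1 count in EpiSC the pooled ratio was 86.4 in ESC (95% counting interval 15.2 to 3447) and 76.1 in iPSC (13.6 to 3013).

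Tbx3 had 1 count in NOD EpiSC (5.16 CPM) and 0 in 129 EpiSC. ESC held 90.1 CPM in NOD, 17.9 CPM in WSB, from 2 counts, and 186 CPM in 129, while the 12 iPSC held 72.6 to 264 CPM. WSB ESC was thus close to EpiSC and below every iPSC. The pooled ratio to EpiSC was 34.9 in ESC (5.92 to 1413) and 45.7 in iPSC (8.12 to 1811).

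Nr0b1, which is X-linked and known as Dax1, had 0 counts in both EpiSC. ESC held 19.9 CPM in 129, 35.8 CPM in WSB and 36.1 CPM in NOD, from 3, 4 and 4 counts. The 12 iPSC held 37.3 to 101 CPM, from 4 to 20 counts, all above the ESC but the lowest of them narrowly. All ESC were male, while the iPSC were of both sexes. Pooled Nr0b1 was at least 3.20-fold higher in ESC and at least 6.93-fold higher in iPSC than the EpiSC floor.

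Nanog was detected in both EpiSC, with 20.6 CPM from 4 counts in NOD and 22.7 CPM from 3 counts in 129. ESC held 71.7 CPM in WSB, 90.1 CPM in NOD and 146 CPM in 129, and the 12 iPSC held 33.5 to 154 CPM. The pooled ratio of Nanog to EpiSC was 4.99 in ESC (2.21 to 13.2) and 4.24 in iPSC (2.01 to 10.7). Klf2 held 10.3 CPM from 2 counts in NOD EpiSC and 7.57 CPM from 1 count in 129 EpiSC. ESC were close together, at 90.1 CPM in NOD, 99.5 CPM in 129 and 125 CPM in WSB, and iPSC ran from 37.3 to 165 CPM. The Klf2 groups did not overlap, with pooled ratios of 11.4 in ESC (3.61 to 57.4) and 8.91 in iPSC (2.99 to 43.7).

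Klf5 and Prdm14 were under the filter. Klf5 had 0 counts in NOD EpiSC and 4 counts (30.3 CPM) in 129 EpiSC, against 35.8 to 54.1 CPM in ESC and 0 to 68.9 CPM in iPSC, so that iPSC and EpiSC overlapped. Prdm14 had 27.0 CPM in NOD ESC, 8.96 CPM in WSB ESC and 39.8 CPM in 129 ESC, from 3, 1 and 6 counts, and 0 counts in EpiSC. Over the 12 iPSC it had 12 counts in all, and its pooled level there was under the EpiSC floor. Pooled Prdm14 was at least 2.91-fold higher in ESC than that floor.

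**Figure D1:**
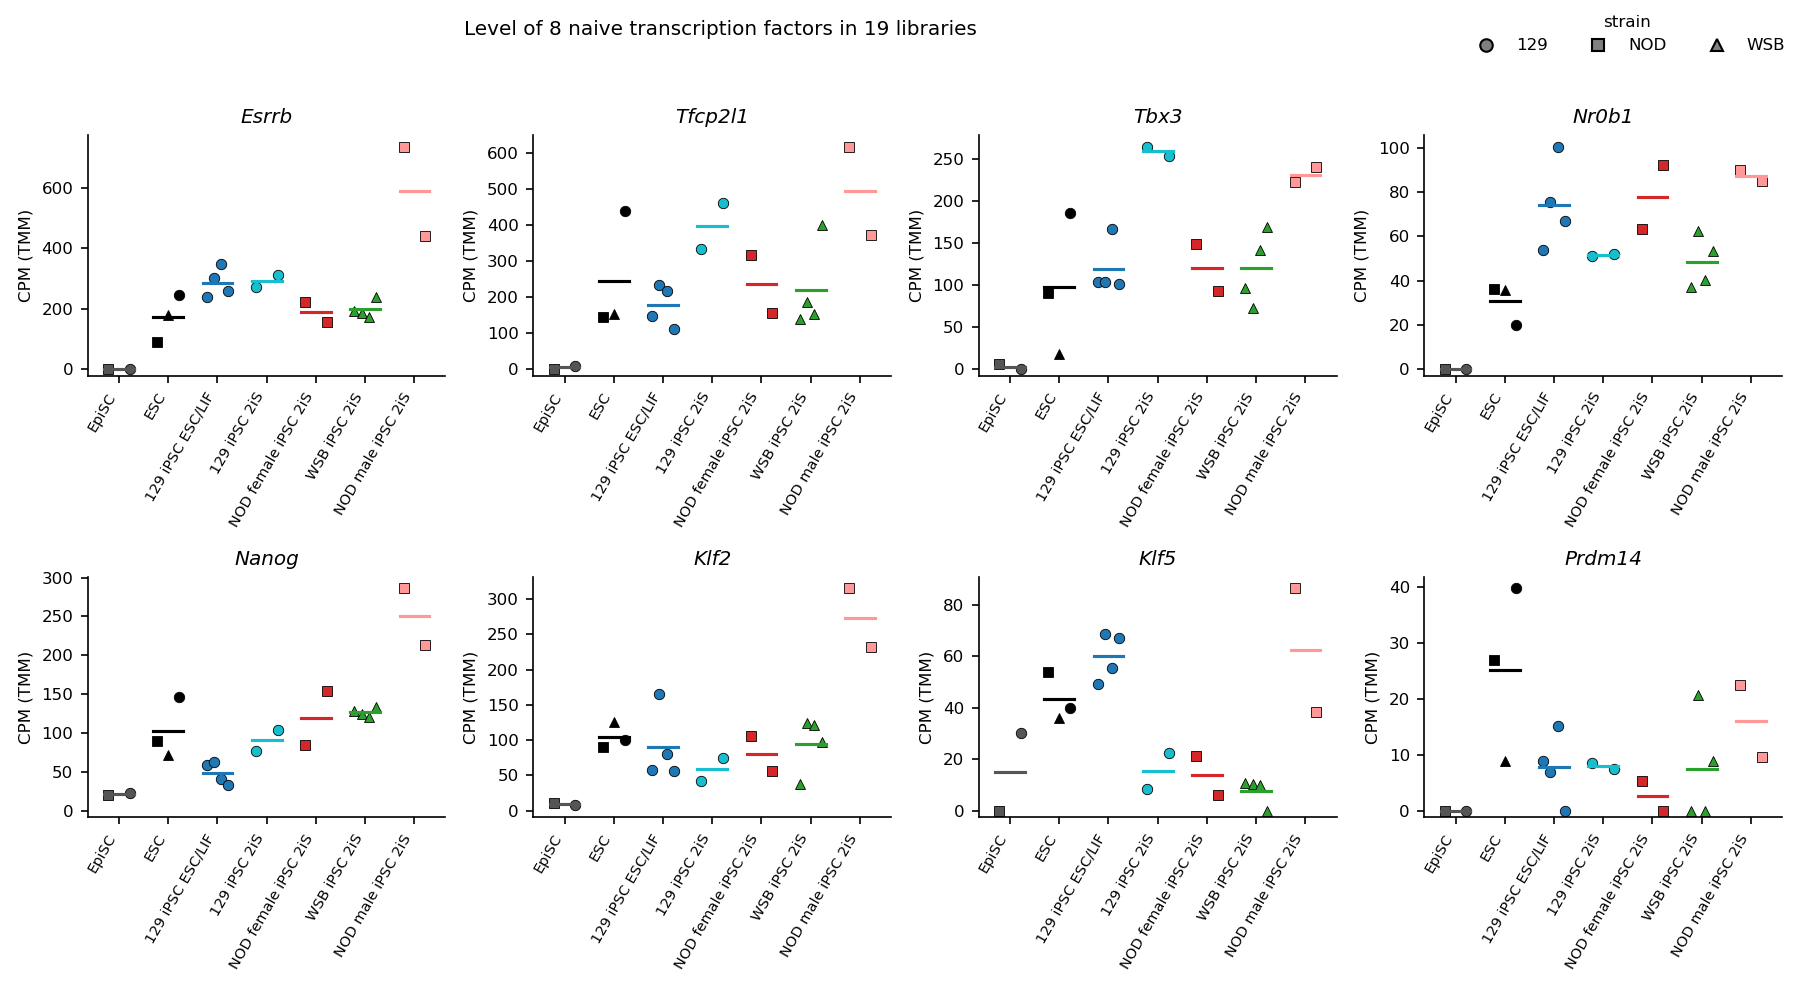
Level of each of the 8 genes in CPM (vertical axis, its own scale in each panel) in each of the 19 libraries, arranged by cell state, strain and medium, with marker shape for strain and a bar for the group mean. EpiSC sit at or near 0 for Esrrb, Tfcp2l1, Tbx3, Nr0b1 and Prdm14, and the 2 NOD male iPSC lie highest for Esrrb, at 442 and 738 CPM.

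ESC against EpiSC called 6 of 6 tested members higher, where 15.1% of all 3986 genes tested were called (edgeR quasi-likelihood test, adjusted p under 0.05 over all genes). The log2 fold change of Esrrb was 7.66 (SE 0.92, adjusted p = 2.56e-05), of Tfcp2l1 5.97 (SE 1.03, adjusted p = 0.000635), of Nr0b1 5.15 (SE 1.14, adjusted p = 0.00452) and of Tbx3 4.71 (SE 1.07, adjusted p = 0.00491). Klf2 followed with 3.39 (SE 0.72, adjusted p = 0.00317) and Nanog with 2.23 (SE 0.64, adjusted p = 0.0226). Fitted changes against 0 counts depend on the prior count and are no bounds, and members at or near 0 in EpiSC passed the filter only through ESC and iPSC, so that the count is a description. The median over the 6 members was 4.93, beside 0.06 over all genes tested. The call of Nanog was lost without 129 ESC (adjusted p = 0.101), without NOD EpiSC (0.112), without 129 EpiSC (0.116) and with the NOD male iPSC in the fit (0.131). The call of Nr0b1 was lost without NOD EpiSC (adjusted p = 0.0646), of Tbx3 without 129 EpiSC (0.0618) and of Klf2 with the NOD male iPSC (0.0545). Here and in the comparisons that follow, leaving out 1 of 2 libraries of a group leaves a lone library, which the fit assumes to vary like the other groups.

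The 12 iPSC against the same 2 EpiSC, which both comparisons share, called 6 of 6 higher, where 28.3% of all genes tested were called. The log2 fold change was 8.13 for Esrrb (SE 0.84, adjusted p = 6.39e-07), 6.21 for Nr0b1 (SE 0.94, adjusted p = 5.94e-05), 5.90 for Tfcp2l1 (SE 0.97, adjusted p = 0.000123) and 5.19 for Tbx3 (SE 0.96, adjusted p = 0.000407). It was 3.07 for Klf2 (SE 0.66, adjusted p = 0.00149) and 2.06 for Nanog (SE 0.57, adjusted p = 0.0105), which lost its call without NOD EpiSC (adjusted p = 0.102) or 129 EpiSC (0.0814). The member median was 5.54, beside 0.10 over all genes. With the conditions of the source names in place of the titles, 0 of 7 tested members were called in either comparison.

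iPSC against ESC called 0 of 6 members, where 6.22% of all genes tested were called. DESeq2 called 0 members. At an unadjusted p under 0.05, edgeR gave 775 of the 3986 genes tested and 1 of the 6 members. That member was Nr0b1, with 1.06 (SE 0.41, adjusted p = 0.141), a 95% interval of 0.26 to 1.85 and no overlap between the 12 iPSC and the 3 ESC. The ESC levels rest on 3 to 4 counts each, and the ESC are all male, unlike the iPSC. With library sizes set to uniquely aligned read pairs, Nr0b1 was called (1.35, adjusted p = 0.0400), with the median of all genes at 0.34 on that scale and 0.05 on the main one. The intervals of the others ran from -0.09 to 1.04 for Esrrb, -0.85 to 0.71 for Tfcp2l1, -0.40 to 1.34 for Tbx3, -0.90 to 0.55 for Nanog and -1.02 to 0.38 for Klf2. Without 129 ESC, the Tbx3 value was 1.39 (adjusted p = 0.205).

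**Figure D2:**
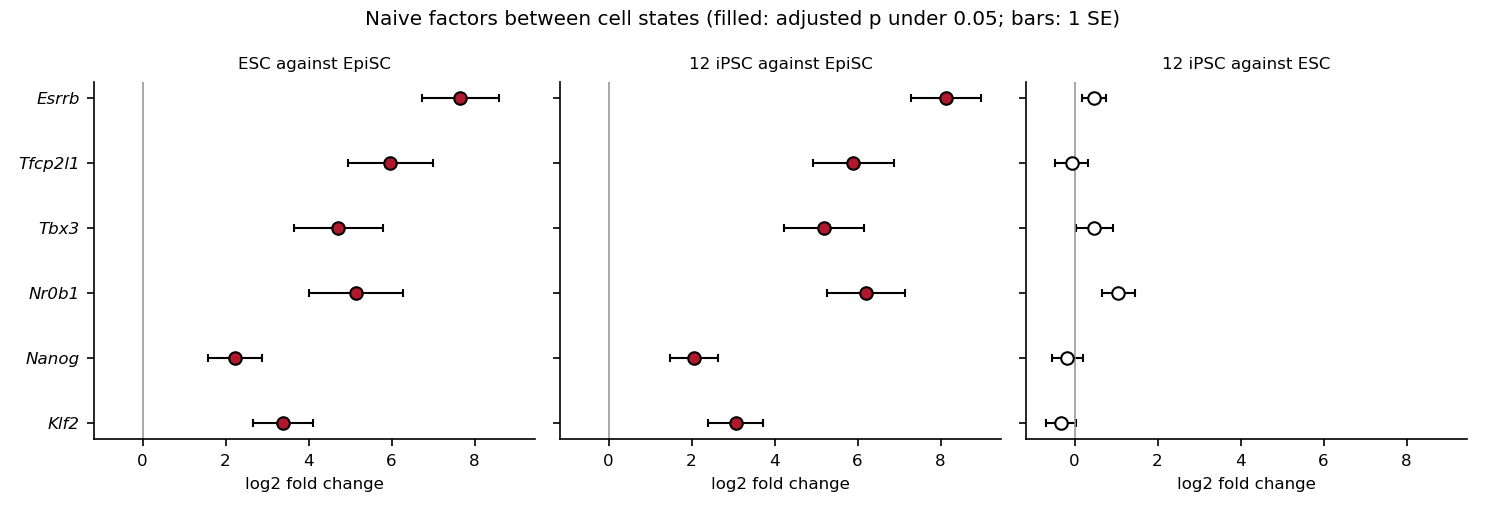
Fitted log2 fold change (horizontal axis) with a bar of 1 SE for the 6 tested genes in ESC against EpiSC, 12 iPSC against EpiSC and 12 iPSC against ESC, filled where the adjusted p was under 0.05. All 12 values against EpiSC are filled, from 2.06 to 8.13, and the 6 values of iPSC against ESC are open, from -0.32 to 1.06.

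Per length of exon, where genes can be compared with each other, Klf2 and Nanog led in ESC, at 56.9 ± 9.91 and 45.8 ± 17.2 CPM per kilobase (SD, n = 3). Esrrb (28.4 ± 12.9) and Tfcp2l1 (25.9 ± 17.7) came next, followed by Nr0b1 (16.9 ± 5.13), Tbx3 (14.8 ± 12.7), Prdm14 (9.85 ± 6.04) and Klf5 (8.31 ± 1.84). Neighbours in this order differed by less than the larger of their SDs, apart from Nanog and Esrrb, whose gap was about the SD of Nanog. In the 12 iPSC the order was Klf2 (46.0 ± 21), Nanog (41.6 ± 17.7), Esrrb (39.9 ± 9.94), Nr0b1 (34.6 ± 10.7), Tfcp2l1 (25.2 ± 12.1), Tbx3 (21.5 ± 9.42), Klf5 (5.29 ± 4.87) and Prdm14 (2.66 ± 2.53, n = 12). Neighbours again differed by less than the larger SD, apart from Tbx3 and Klf5. In EpiSC, Nanog led with 9.67 ± 0.656, followed by Klf2 with 4.84 ± 1.05 and Klf5 with 2.91 ± 4.12 (n = 2).

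The wider naive list held 20 genes other than the 8, of which 15 were tested. ESC against EpiSC called 7 higher and 1 lower, led by Zfp42 (Rex1, log2 fold change 8.64), Dppa5a (8.27) and Klf4 (7.22), with Lin28a as the lower 1 (-1.56, named after its value was seen), and iPSC against EpiSC called 9 higher and 0 lower. Among 7 tested genes of the primed list of 20, ESC against EpiSC called 2 lower (Sox4 -3.23, Krt18 -4.75) and 1 higher, Lefty2, a Nodal antagonist (4.23). Of the primed list, iPSC against EpiSC called 4 lower (Sox4 -3.72, Zic5 -2.23, Dnmt3b -1.20 and, named after its value was seen, Krt18 -2.26) and 1 higher, Lefty2 (3.1). iPSC against ESC called 1 naive gene higher, Pou5f1 (1.03), which the lentivirus carries, and 1 primed gene lower, Zic5 (-2.60).

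The labelled states were checked against markers. Fgf5, a marker of the primed epiblast, had 17 counts in 129 EpiSC and 0 in NOD EpiSC, ESC and iPSC, and T had 5 counts in 129 EpiSC and 0 in NOD EpiSC. NOD EpiSC thus had no count on either. Otx2, another primed marker, did not separate the states, with 3 counts in each EpiSC line (15.5 and 22.7 CPM), 0 to 7 counts in ESC (up to 46.4 CPM) and 0 to 3 counts in the 12 iPSC (up to 26.7 CPM). Fibroblast genes also moved with cell state. Over the list of 16, the summed level was 2100 to 3157 CPM in ESC, 351 to 1530 CPM in EpiSC and 458 to 1032 CPM in the 12 iPSC, with 1, 2 and 5 genes at 0 counts in every library of the group. Its defining marker Col1a1 had 32 to 64 counts in each ESC, 3 in each EpiSC and 0 to 3 in iPSC. Of its 6 tested genes, iPSC against ESC called 4 lower (Col1a1 -6.20, Col5a1 -4.33, Tnc -7.10, Vim -2.32). iPSC against EpiSC called 3 lower (Vim -2.50, Tnc -5.84, Col5a1 -2.37), and ESC against EpiSC called Col1a1 higher (4.21). The part of fibroblast RNA in the differences of the members between cell states was not tested. Endoderm genes, a list of 6, summed to at most 37.9 CPM in any library, and 0 of them passed the filter.

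The change of medium within a strain is given by 129 male clones 1 and 17, sampled in ESC/LIF and, after further passages, in 2iS. Tfcp2l1 and Tbx3 were higher in 2iS, and Klf5 was lower in both clones on few counts. Medium and passage differ together here and cannot be told apart.

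Tfcp2l1, on which LIF and 2i inputs converge in ESC, went from 148 to 333 CPM in clone 1 and from 112 to 461 CPM in clone 17, from 33 to 39 and from 10 to 62 counts. Tbx3, a factor in the LIF response, went from 103 to 264 CPM in clone 1 and from 101 to 253 CPM in clone 17. Both genes therefore had each 2iS library above each ESC/LIF library of the same sex. Of 6 tested members 2 were called, both higher, where 4.10% of the 3388 genes tested were called. Tfcp2l1 had a log2 fold change of 1.56 (SE 0.36, adjusted p = 0.00781) and Tbx3 of 1.34 (SE 0.39, adjusted p = 0.0394). With the clone as a replicate block, Tfcp2l1 stayed past the threshold (1.52, adjusted p = 0.0143) and Tbx3 did not (1.35, adjusted p = 0.0511). DESeq2 called 0 members (adjusted p = 0.0696 for Tfcp2l1 and 0.365 for Tbx3). Tfcp2l1 lost its call without clone 17 in 2iS (adjusted p = 0.133), clone 1 in ESC/LIF (0.0708) or clone 17 in ESC/LIF (0.0523), and Tbx3 lost its call without any 1 of the 4 libraries (0.129 to 0.33).

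Nanog went from 58.2 to 76.8 CPM in clone 1 and from 33.5 to 104 CPM in clone 17, a log2 difference of 0.85 (95% interval -0.13 to 1.84, adjusted p = 0.484). Esrrb went from 237 to 273 CPM and from 257 to 313 CPM, a difference of 0.26 (-0.32 to 0.85, adjusted p = 0.787). Groups did not overlap for either gene, yet neither passed. Nr0b1 went from 53.7 to 51.2 CPM and from 67.0 to 52.1 CPM (-0.16, interval -1.21 to 0.88). Klf2, whose protein MEK inhibition is known to stabilise, went from 58.2 to 42.7 CPM in clone 1 and from 55.9 to 74.4 CPM in clone 17, in opposite directions (0.05, adjusted p = 0.987).

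Klf5 went from 11 counts (49.2 CPM) to 1 count (8.53 CPM) in clone 1 and from 6 counts (67.0 CPM) to 3 counts (22.3 CPM) in clone 17. Both 2iS libraries were below both in ESC/LIF, and with no filter on low counts the change was -1.75 (SE 0.80, adjusted p = 0.622). Prdm14 had 0 to 2 counts in these 4 libraries.

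**Figure D3:**
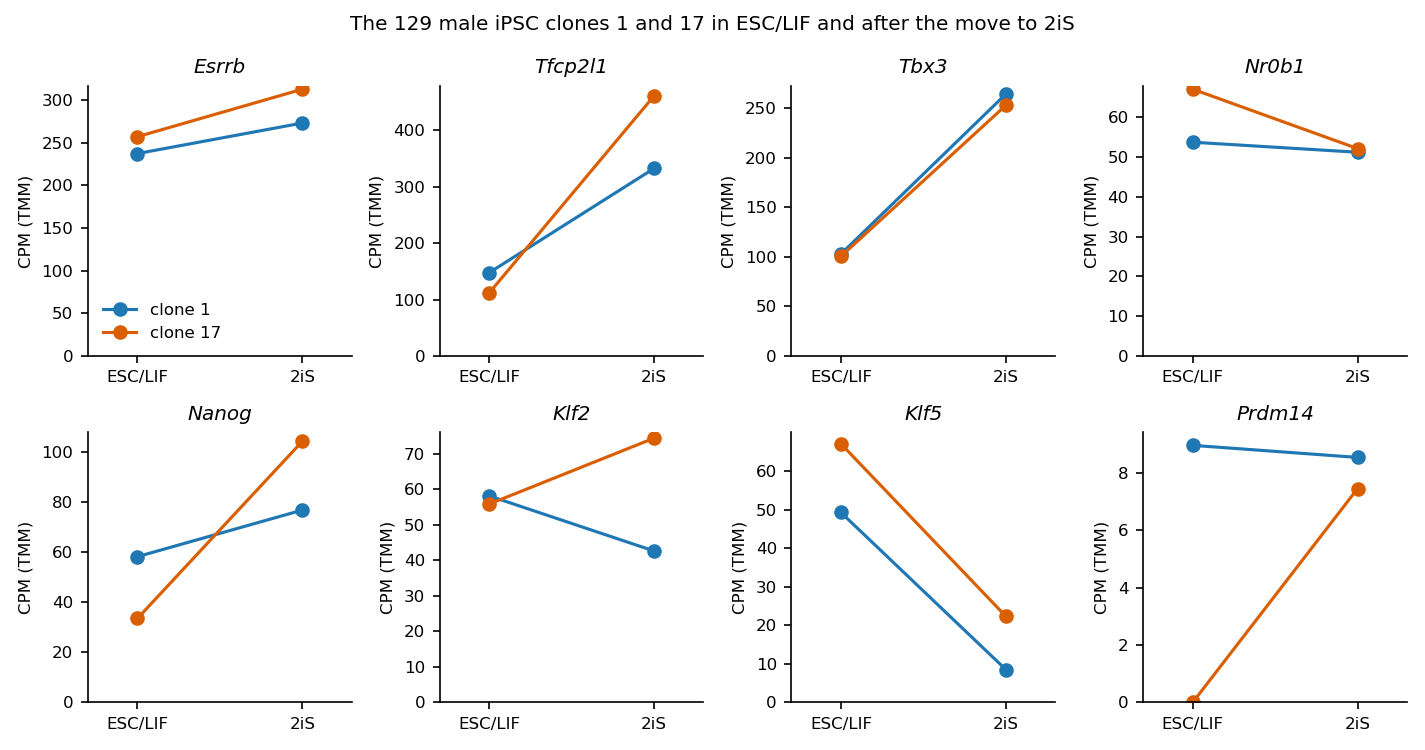
Level of each gene in CPM (vertical axis) in 129 male iPSC clones 1 and 17 in ESC/LIF and in 2iS, with a line joining the libraries of a clone. Tfcp2l1 and Tbx3 rise along both lines, and Klf2 goes down in clone 1 and up in clone 17.

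Among other genes tested for the medium, the naive list of 14 called 1 higher, Klf4 (1.37, adjusted p = 0.0157), a factor that the integrated lentivirus also carries. Targets of the Fgf and MEK pathway were mostly too low to test. Their summed level over a list of 10 was 292 to 447 CPM in the 4 129 iPSC in ESC/LIF and 145 to 231 CPM in the 2 in 2iS, and 0 of 2 tested genes were called (edgeR, median -1.0). In iPSC against EpiSC, Etv5 (1.34) was called higher and Fosl1 (-1.75) lower among 3 tested genes of that list. None of the 10 genes in the Wnt target list passed the filter in the fit of the 12 iPSC.

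Strain was compared within 2iS where sex could be matched. WSB male clones 12 and 25 had less Tfcp2l1 than 129 male clones 1 and 17, at 138 and 151 CPM against 333 and 461 CPM. Tbx3 was 95.9 and 141 CPM in WSB and 264 and 253 CPM in 129, and Esrrb was 192 and 171 CPM in WSB and 273 and 313 CPM in 129. All 3 genes were below 129 in each WSB male clone, with 2 libraries on each side. The share of all genes that separate in this way was not computed. Of 6 tested members 1 was called, lower, where 5.05% of genes were called. Tfcp2l1 passed (-1.47, SE 0.36, adjusted p = 0.0105), and Tbx3 (-1.18, interval -1.93 to -0.43, adjusted p = 0.0687) and Esrrb (-0.67, interval -1.28 to -0.06, adjusted p = 0.252) did not. With both sexes of WSB in the comparison, Tbx3 passed as well (-1.12, adjusted p = 0.0328). Tfcp2l1 lost its call with DESeq2 (adjusted p = 0.0889), without 129 clone 17 in 2iS (0.159) and without WSB clone 12 (0.151).

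The other members differed less between these strains. Nanog was 128 and 121 CPM in WSB males and 76.8 and 104 CPM in 129 males, a log2 difference of 0.45 (-0.40 to 1.31, adjusted p = 0.664). Nr0b1 was 37.3 and 40.3 CPM against 51.2 and 52.1 CPM (-0.42, -1.57 to 0.73), and Klf2 was 37.3 and 121 CPM against 42.7 and 74.4 CPM (0.22, -0.94 to 1.37). Klf5 was between 8.53 and 22.3 CPM in all 4.

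WSB females 23 and 28 and NOD females 7 and 52 were both from non-permissive strains in 2iS. They differed in 0 of 6 tested members (edgeR, and DESeq2 alike), where 3.98% of genes were called. An unadjusted edgeR p under 0.05 was found for 0 members and for 528 of the 3388 genes tested. Esrrb was 187 and 240.1 CPM in WSB and 222 and 154 CPM in NOD (0.17, interval -0.46 to 0.80). Tfcp2l1 was 187 and 400.1 CPM against 317 and 154 CPM (0.31, -0.37 to 0.99), and Nanog was 125 and 133 CPM against 84.7 and 154 CPM (0.12, -0.70 to 0.94). Nr0b1, at 62.3 and 53.3 CPM against 63.5 and 92.5 CPM (-0.43, -1.42 to 0.56), and Klf2, at 125 and 97.8 CPM against 106 and 55.5 CPM (0.41, -0.57 to 1.40), likewise had intervals that span 0. Tbx3 was 72.6 and 169 CPM in WSB and 148 and 92.5 CPM in NOD.

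The non-permissive strains in 2iS were also set against 129 in ESC/LIF, their permissive counterpart in its own medium. Strain and medium differ together in both comparisons and cannot be told apart, and both use the 129 female clones 5 and 8. Nanog was higher in all 4 WSB clones, and Klf5 was lower on few counts.

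Nanog was 33.5, 40.3, 58.2 and 62.0 CPM in 129 and 121, 125, 128 and 133 CPM in WSB, from 3 to 13 and 12 to 24 counts. No library of one group reached the other. Its log2 fold change was 1.33 (SE 0.34, adjusted p = 0.00517). Nanog was the 1 call among 6 tested members, which is near the share of all genes called, 15.5%. It passed in 13 of 14 alternatives, the exception being DESeq2 (1.36, adjusted p = 0.0526). The 129 clones in 2iS, at 76.8 and 104 CPM, lay between the groups.

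Klf5 was 49.2, 55.4, 67.0 and 68.9 CPM in 129 in ESC/LIF, from 6 to 11 counts, and 0, 10.1, 10.4 and 10.7 CPM in WSB, from 0 to 2 counts. The gene was under the filter in the main fit. With no filter, where 4.39% of 15658 genes were called, it passed (-2.97, SE 0.67, adjusted p = 0.000586). All 8 iPSC in 2iS of the 3 strains, without NOD males, had 0 to 22.3 CPM (11.2 ± 7.40, n = 8). They lay below each of the 4 in ESC/LIF (60.1 ± 9.41, n = 4). The 8 pool strains and sexes, while the 4 are all of 129. The WSB and NOD libraries thus differ from the 4 in strain as well as medium. The 129 male clones enter both sets, so the sets are not independent and their SDs are a description. The NOD male iPSC, also in 2iS, had 38.4 and 86.5 CPM, and the ESC, kept with both inhibitors as well, had 35.8 to 54.1 CPM. Low Klf5 was thus not seen in every library with inhibitors.

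The other WSB values overlapped or did not pass. Esrrb was 171 to 240.1 CPM in WSB and 237 to 347 CPM in 129 (-0.51, interval -0.94 to -0.08, adjusted p = 0.119), and Nr0b1 was 37.3 to 62.3 CPM and 53.7 to 101 CPM (-0.61, -1.34 to 0.12, adjusted p = 0.309). Tfcp2l1 (0.25, -0.28 to 0.78), Klf2 (0.08, -0.65 to 0.81) and Tbx3 (119.6 ± 43.4 CPM in WSB and 118 ± 32.0 CPM in 129, SD, n = 4) lay close together.

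NOD females 7 and 52 in 2iS against 129 females 5 and 8 in ESC/LIF had 0 of 6 tested members called. That held for edgeR, where 6.76% of genes were called, and for DESeq2. An unadjusted edgeR p under 0.05 was found for 2 of the 6 members and for 662 of the 3388 genes tested. Nanog was 84.7 and 154 CPM in NOD and 62.0 and 40.3 CPM in 129 (1.23, interval 0.35 to 2.12, adjusted p = 0.0997). Esrrb was 222 and 154 CPM in NOD and 303 and 347 CPM in 129 (-0.77, -1.33 to -0.22, adjusted p = 0.102). For both genes the NOD clones lay on one side of the 129 clones. Among the 8 members, 1 lay wholly above 129, 3 lay wholly below, and 4 overlapped, with 2 libraries on each side. The share of all genes without overlap was not computed, so these counts are a description only. Klf5 was 21.2 and 6.17 CPM in NOD and 68.9 and 55.4 CPM in 129, and its change with no filter was -2.07 (adjusted p = 0.144). Of the other lists, Lefty2 was called higher both in WSB (1.67) and in NOD females (2.35), and Gbx2, a naive gene, was called lower in WSB (-1.84). Fibroblast genes also moved with these comparisons, Sparc being called higher in WSB (1.34) and Fn1 in NOD females (1.61), of 2 tested in each. The summed level of the fibroblast list was 458 to 519 CPM in 129 in ESC/LIF, 693 to 877 CPM in WSB and 956 to 1032 CPM in NOD females, with 10, 7 and 10 of its 16 genes at 0 counts in every library of the group. Fn1 alone had a mean of 888 CPM in NOD females and 290 CPM in 129 females. Between WSB and NOD females in 2iS, Fn1 was called lower in WSB (-1.21) and Sparc higher (1.66). The part of fibroblast RNA in the values of the members was not tested here either.

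**Figure D4:**
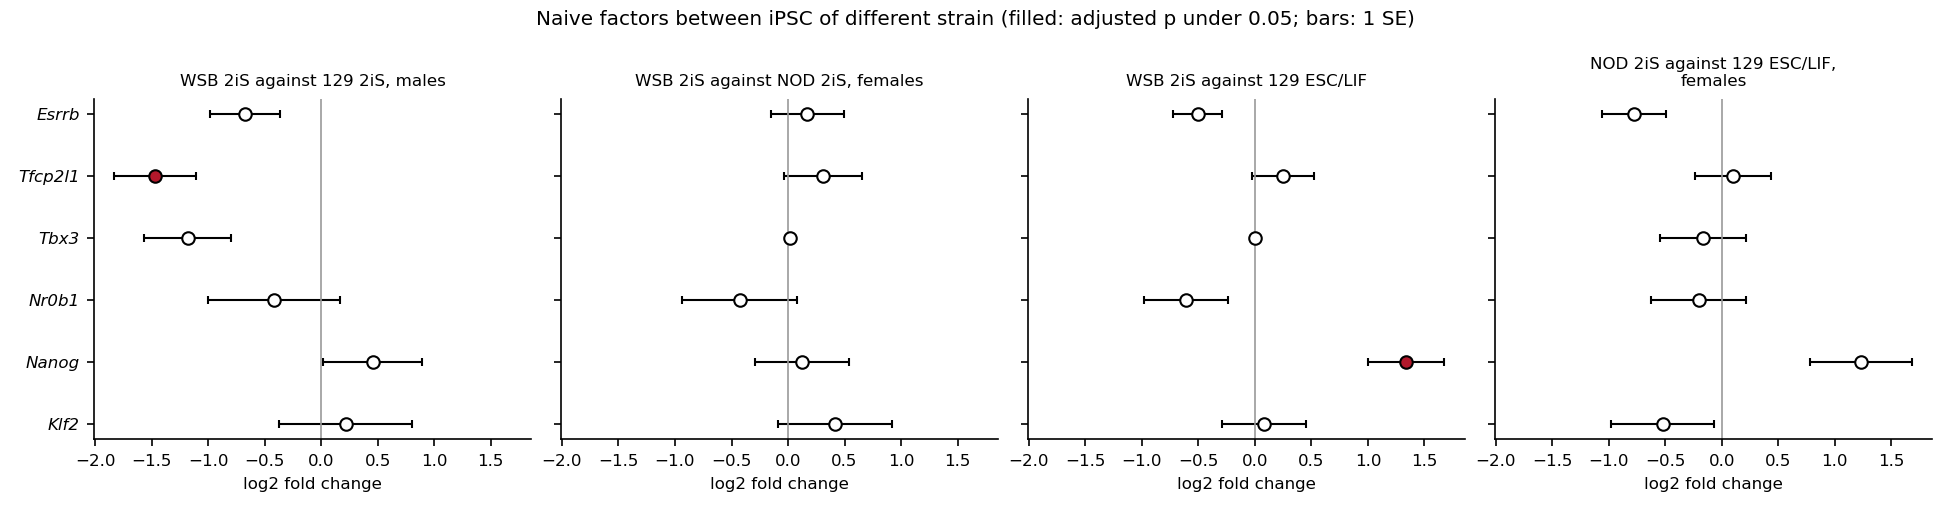
Fitted log2 fold change (horizontal axis) with a bar of 1 SE for the 6 tested genes in 4 comparisons: WSB against 129 males in 2iS, WSB against NOD females in 2iS, WSB in 2iS against 129 in ESC/LIF, and NOD females in 2iS against 129 females in ESC/LIF, filled where the adjusted p was under 0.05. Changes smaller than 0.05 have no SE bar, and the filled values are Tfcp2l1 at -1.47 and Nanog at 1.33.

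Across the 5 groups of iPSC by strain and medium, with the NOD sexes apart, Esrrb was ordered NOD males (590 ± 209 CPM, SD, n = 2), 129 in 2iS (293 ± 28.0, n = 2), 129 in ESC/LIF (286 ± 49.3, n = 4), WSB (197 ± 29.7, n = 4) and NOD females (188 ± 48.2, n = 2). The 2 groups of 129 and, separately, WSB and NOD females lay within each other's SD. Tfcp2l1 was ordered NOD males (496 ± 173), 129 in 2iS (397 ± 91.1), NOD females (236 ± 115), WSB (219 ± 122) and 129 in ESC/LIF (177 ± 57.6), and each neighbour was within the SD of the group above, apart from NOD females below 129 in 2iS. Nanog was ordered NOD males (250 ± 52.3), WSB (127 ± 5.28), NOD females (119 ± 49.1), 129 in 2iS (90.5 ± 19.4) and 129 in ESC/LIF (48.5 ± 13.8). Here WSB and NOD females could not be separated by their spread.

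Sex was compared in the WSB clones in 2iS and the 129 clones in ESC/LIF, with the strains fitted together. Of 6 tested members 0 were called (edgeR, and DESeq2 alike), where 1.68% of genes were called. An unadjusted edgeR p under 0.05 was found for 2 of the 6 members and for 439 of the 3388 genes tested. Tfcp2l1 was 217 to 234 CPM in 129 females in ESC/LIF and 112 to 148 CPM in the males, and 187 to 400.1 CPM in WSB females and 138 to 151 CPM in the males (0.90, interval 0.37 to 1.42, adjusted p = 0.0954). The females lay above the males in each strain. Klf2 was 80.6 to 165 CPM and 55.9 to 58.2 CPM in 129 females and males, and 97.8 to 125 CPM and 37.3 to 121 CPM in WSB (0.86, 0.13 to 1.58, adjusted p = 0.308). X-linked Nr0b1 was 75.8 to 101 CPM in 129 females and 53.7 to 67.0 CPM in males, and 53.3 to 62.3 CPM and 37.3 to 40.3 CPM in WSB (0.60, -0.14 to 1.33, adjusted p = 0.524). The sex difference itself was compared between WSB in 2iS and 129 in ESC/LIF, where strain and medium differ together and cannot be told apart. In that comparison 0 of 6 members were called (edgeR, and DESeq2 alike), where 0.118% of genes were called. An unadjusted edgeR p under 0.05 was found for 0 members and for 215 of the 3388 genes tested. The adjusted edgeR p of the members was at least 0.959.

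The 2 NOD male iPSC had the highest summed level of the 8 genes, at 1634 and 2380 CPM, against 639 to 1288 CPM in the 12 other iPSC. They held 1020 and 1899 counts on these genes against 62 to 203. Scaled to a common total of counts on genes without opposite-strand exons, the sum was 4079 in clone 35 and 5727 in clone 3. The 12 other iPSC had 1989 to 3998 on that scale, so clone 35 was barely above them. Raw counts of Actb were 1271 to 1467 in the males and 54 to 239 in the 17 libraries. Those of Gapdh were 15 to 27 and 0 to 6. The part of the counted strand in the high sums was not tested. Relative to NOD females, 6 of 7 tested members were higher, where 38.9% of the 4457 genes tested were called, 640 higher and 1095 lower.

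Esrrb was 738 and 442 CPM in clones 3 and 35 and 222 and 154 CPM in the females (1.62, SE 0.27, adjusted p = 1.18e-05). Klf2 was 316 and 232 CPM against 106 and 55.5 CPM (1.72, SE 0.37, adjusted p = 0.000359), and Klf5 was 86.5 and 38.4 CPM against 21.2 and 6.17 CPM (2.1, SE 0.65, adjusted p = 0.0106). Both Klf genes lay above the females in each male clone. Nanog (287 and 213 CPM, 1.07, adjusted p = 0.0067), Tfcp2l1 (618 and 373 CPM, 1.04, adjusted p = 0.00731) and Tbx3 (222 and 240.3 CPM, 0.91, adjusted p = 0.0226) were also called. Nr0b1 was 90.2 and 84.9 CPM against 63.5 and 92.5 CPM (0.17, -0.52 to 0.86, adjusted p = 0.735), and Prdm14 had 18 and 6 counts in the males and 1 and 0 in the females.

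These differences come with a different share of reads on genes. As CPM of uniquely aligned read pairs, the 8 genes summed to 132 and 188 in the NOD males and to 9.55 to 20.05 in the 12 other iPSC. On that scale all 7 tested members were called, Nr0b1 included (2.61, adjusted p = 2.34e-08), and the median of all genes moved from 0.18 to 2.61, with 3460 of 3527 called genes higher. Relative to that median, Esrrb (4.06), Klf2 (4.15), Klf5 (4.5), Nanog (3.52), Tfcp2l1 (3.46) and Tbx3 (3.34) stayed above it, and Nr0b1 was at it. With the fit limited to genes without opposite-strand exons and the members, Tbx3 included, Esrrb and Klf2 were called and Klf5, Nanog, Tbx3 and Tfcp2l1 were not (adjusted p = 0.0883 to 0.245). The same 4 were not called by DESeq2 (adjusted p = 0.0778 to 0.191). Leaving out clone 3 ended the calls of Klf5 (adjusted p = 0.214), Nanog (0.0992) and Tfcp2l1 (0.173), leaving out clone 52 those of Klf5 (0.135), Tbx3 (0.235) and Tfcp2l1 (0.171), leaving out clone 35 that of Tbx3 (0.0793) and leaving out clone 7 that of Nanog (0.177). Fibroblast genes summed to 2794 to 3948 CPM in the males and 956 to 1032 CPM in the females, with Fn1 (1.78), Vim (1.99) and Sparc (1.12) called higher, while Col1a1 had 0 and 3 counts in the males. Most of this sum was Fn1, with a mean of 3088 CPM in the males and 888 CPM in the females. In both males, 8 of the 16 fibroblast genes had 0 counts. Of the naive list of 20, 7 of 19 tested genes were higher, Pou5f1 among them (1.12), and 1 was lower, Gbx2 (-2.31). Endoderm genes were at 3.76 to 12.8 CPM in all in the males. The part of the read share on genes and of fibroblast RNA in these values was not tested.

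**Figure D5:**
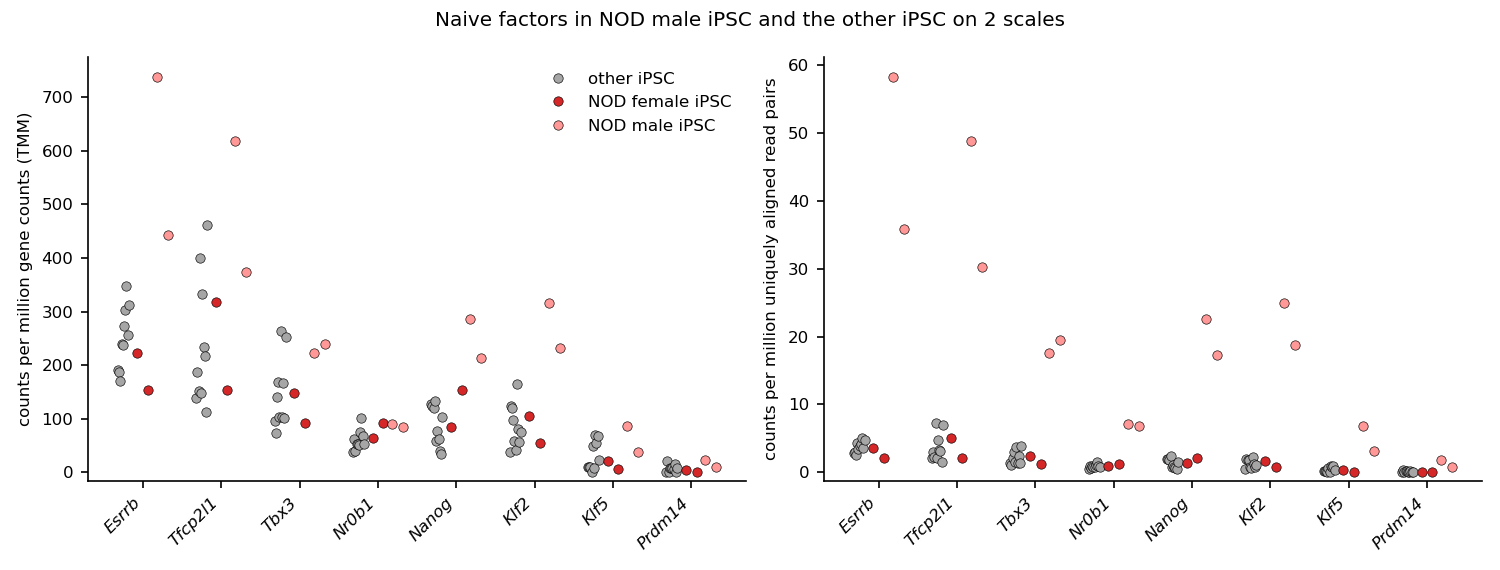
Level of each of the 8 genes (horizontal axis) in each iPSC library as CPM of gene counts after TMM normalization (left) and as CPM of uniquely aligned read pairs (right), with the 12 other iPSC in grey apart from NOD females in red and NOD males in pink. On the left, the males lie above the other iPSC for Esrrb, at 442 and 738, and among them for Nr0b1, at 84.9 and 90.2. On the right, the males lie above the other iPSC for each gene, with Esrrb at 35.8 and 58.3.

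The genes with the most similar pattern over the 17 libraries without NOD males were found among 3986 genes by Pearson's r of log2 CPM, given as a description since the libraries share cell states and depth. Klf4 was first for Esrrb (r = 0.96), Tfcp2l1 (0.95) and Tbx3 (0.93), followed by Gab1 for Esrrb (0.96), Fgf4 for Tfcp2l1 (0.93) and Tet2 for Tbx3 (0.93). Klf4 is carried by the lentivirus in the iPSC. Nr0b1 was nearest Morc1 (0.92) and Ttc39b (0.91), Nanog nearest Gsta4 (0.91) and Jam2 (0.88), and Klf2 nearest Phax (0.92) and AU018091 (0.85). Klf5 was nearest Plscr3 (0.86) and Ltbp4 (0.84), and Prdm14 nearest Alg13 (0.78) and Kirrel3 (0.75), with few counts behind both. Within the 12 iPSC alone, the 2 members with a median count of at least 20 were nearest Hnrnpd (0.92) and Tcp1 (0.89) for Esrrb, and Klf4 (0.89) and Prkar2a (0.87) for Tfcp2l1. Among the 28 pairs of members, the median r was 0.55 over the 17 libraries (-0.27 to 0.93) and 0.14 over the 12 iPSC (-0.87 to 0.77).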

How the data were processed

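The authors trimmed reads with Trimmomatic, aligned read pairs to GRCm38 (mm10) with TopHat2 2.1.1 and took counts per gene from HTSeq (intersection-nonempty mode). The strand setting of the counting is not given in the sources used here. For each of the 19 libraries the authors deposited raw counts per gene symbol, without normalization, which were used as deposited. Lines for read pairs on no gene, ambiguous or not uniquely aligned were left out of library sizes and tests.

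Libraries were grouped by title. Counts were tested with edgeR 4.0.16 in R 4.3.3 (TMM, filterByExpr, glmQLFit and glmQLFTest), and p-values were adjusted by Benjamini-Hochberg over all genes tested, with a threshold of 0.05. Cell states were fitted on 12 iPSC, 3 ESC and 2 EpiSC without the NOD male iPSC, which the study also left out. Media, strains and sexes were fitted on the 12 iPSC in 6 groups of strain, sex and medium, and NOD males against females on all 14 iPSC in 7 groups. Intervals of fitted changes are the estimate and its SE at 95%. Levels are CPM with TMM, logarithms used a prior count of 2, and a fold against 0 counts used a floor of 3 counts over the group. Floors and ratios of pooled counts, given with exact binomial intervals, cover counting error only. Alternatives were DESeq2 1.42.0, its size factors, no filter, uniquely aligned read pairs as library size, other sets of libraries, strain as a covariate, the clone as a replicate block, the source names as labels and each replicate left out. After seeing the data, a fit of genes without opposite-strand exons, with all 8 members kept, Tbx3 included, was added.

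Clones 1 and 17 in both media are the same clones per the labels, although the difference between the clones correlated by only 0.056 between media over 3388 genes. The 8 members and the lists of naive, primed, fibroblast, endoderm, MEK target and Wnt target genes were chosen with earlier results of these data known. All 8 members are named, with up to 4 called genes of each list per comparison by smallest adjusted p and the 2 most similar genes per member. On simulated counts in which 200 genes had a true log2 difference of 2, the test recovered 50% of them for ESC against EpiSC, 68% for iPSC against EpiSC, 79% for 129 in 2iS against ESC/LIF, 90% for WSB in 2iS against 129 in ESC/LIF and 83% for NOD males against females. Replicates of a group were not identical and differed beyond sampling noise. Positions are from GENCODE M21, promoters from RefSeq. Tables used Python 3.11.15, pandas 2.3.3, numpy 2.4.6 and scipy 1.17.1, and plots matplotlib 3.10.9.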

Additional observations from a re-analysis of the deposited data

Results flagged for a closer look

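In the 4 iPSC of 129 in ESC/LIF, Tbx3 was 166 CPM in female clone 8, from 33 counts, and 101 to 103 CPM in the other 3 clones. The gap to the nearest clone was 0.958 of the range of the group, past Dixon's critical value. In the 4 WSB iPSC in 2iS, Klf5 was 0 CPM in female clone 28, from 0 counts, and 10.1 to 10.7 CPM in the other 3, from 1 or 2 counts each, a gap of 0.946 of the range. Of 24 groups of 4 values tested, 2 had such a sample, and chance gives one in about 1 of 20.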

How the results depend on the processing

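No called value of a member reversed under an alternative. Of 345 alternative values of the 22 called member values, 291 stayed past the threshold and 54 did not, and the number of members called stayed within 1.5 times the main count in 134 of 161 alternatives. With the conditions of source names and characteristics, ESC against EpiSC called 0 members and iPSC against EpiSC called 0. With uniquely aligned read pairs as library size, iPSC against ESC called 1. For 129 iPSC in 2iS against ESC/LIF, the count went from 2 to 0 with DESeq2, and to 1 with no filter, with the replicate block of clone 1 or 17 and with the NOD males as a further group. For WSB against 129 males in 2iS, it went from 1 to 0 with DESeq2 and to 2 with both sexes of WSB. For WSB in 2iS against 129 in ESC/LIF, it went from 1 to 0 with DESeq2, and to 2 with no filter and with the NOD males as a group, where Klf5 passed as well. For NOD males against females, it went from 6 to 2 with DESeq2 and with genes without opposite-strand exons and the 8 members. Leaving out 1 replicate gave 4 to 6 members in ESC against EpiSC, 5 to 6 in iPSC against EpiSC, 0 to 1 in 129 iPSC in 2iS against ESC/LIF, 0 to 1 in WSB against 129 males in 2iS, 1 to 2 in WSB in 2iS against 129 in ESC/LIF, 0 to 1 in female against male iPSC and 3 to 5 in NOD males against females. The cause was not tested. The block changed no other call.

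Of the 45 pairs of member and comparison that were not called, 25 had the other sign under some alternative. Uniquely aligned read pairs as library size moved the share of higher genes among all calls from 45.4% to 62.8% in ESC against EpiSC, from 39.7% to 76.9% in iPSC against EpiSC, from 16% to 60.4% in iPSC against ESC, from 54.1% to 74.2% in WSB against NOD females, from 46.0% to 65.3% in WSB in 2iS against 129 in ESC/LIF and from 68.4% to 82.5% in female against male iPSC. The medians of all genes on that scale were 0.29, 0.62, 0.34, 0.20, 0.16 and 0.10. With genes without opposite-strand exons and the 8 members, the share was 66.7% in WSB against NOD females and 88.9% in female against male iPSC. At 13.2 to 32.3 CPM for a count of 3, the levels of Klf5 and Prdm14 in most iPSC were at or under the floor.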
